A study of Mus musculus with 11 samples.

Results

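The genes described here encode substrate receptors of cullin-RING ligases, measured in mouse splenic T cells with and without cereblon. A gene was a member if a probe set with exactly 1 gene symbol carried a symbol that begins with Fbxo, Fbxw, Fbxl, Klhl, Dcaf or Asb followed by a digit. Where a gene had several such probe sets, the brightest one on average stood for it. The rule found 132 genes among the 18194 measured, held by 236 probe sets. There were 32 Fbxo, 18 Fbxw, 17 Fbxl, 33 Klhl, 14 Dcaf and 18 Asb genes. The rule goes by name alone, so it also took in Fbxl12os, an opposite-strand transcript that is not itself a receptor.

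Cullin-RING ligases attach ubiquitin to proteins, which often marks them for the proteasome. A cullin holds at one end a RING protein that brings a ubiquitin-loaded enzyme, and at the other end an adaptor with an exchangeable substrate receptor that decides which protein is bound. Receptors with an F-box (Fbxo, Fbxw, Fbxl) join Cul1 through Skp1, Klhl proteins join Cul3 through their own BTB domain, Dcaf proteins join Cul4 through Ddb1, and Asb proteins join Cul5 through elongins B and C. Cereblon, the product of Crbn and the protein bound by thalidomide and its relatives, is itself a Ddb1-Cul4 receptor, although its symbol lies outside the rule.

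The study compared 2 genotypes in 2 states of activation, with 1 array per sample. Cells came from spleens of female C57BL6 mice, 3 to 4 months old, either crbn-/- (KO) or wild type (WT), and were purified by magnetic removal of other cells. Activated cells had been kept for 12 h with plate-bound anti-CD3 at 5 µg/ml and soluble anti-CD28 at 1 µg/ml. These antibodies engage the T cell receptor complex and the costimulatory receptor CD28. Naive cells were collected without that treatment. There were 3 activated KO, 2 activated WT, 3 naive KO and 3 naive WT samples, which the labels call biological replicates. The crbn-/- genotype is not described as limited to a cell type, and the sources used here do not give the part of the gene removed. No sample was cultured without antibodies as a labelled group, so culture and stimulation cannot be told apart. In these bulk samples fewer cells of a type and less RNA per cell also cannot be told apart.

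Values are log2 signal intensities, so a difference of 1 is 2-fold. The column medians of the 11 arrays lay between 5.84 and 5.89. Crbn, the gene removed, read 8.70, 8.77 and 8.58 in activated KO cells, against 9.71 and 9.47 in activated WT cells. It read 8.97, 9.07 and 8.91 in naive KO cells, against 10.06, 10.21 and 10.09 in naive WT cells. The genotypes did not overlap in either state. The difference was -0.90 (SE 0.0949, adjusted p = 0.0041) in activated cells and -1.13 (SE 0.0849, adjusted p = 8.7e-05) in naive cells. Adjusted p here and throughout is limma's moderated test with Benjamini-Hochberg adjustment over the 18194 genes, and a gene is said to pass when it is under 0.05. Without the first activated WT array the activated difference was -0.78 with an adjusted p of 0.085, and with the activated arrays fitted alone its adjusted p was 0.059. The mean level of 7 T cell markers was 11.18 to 11.32 in activated KO, 11.31 to 11.37 in activated WT, 12.02 to 12.07 in naive KO and 11.91 to 12.06 in naive WT arrays.

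Most receptors read above a low mark of signal, which is not a call of detection. A probe set was called dim on an array when it lay below 4.57, the smallest of the 11 arrays' lower quartiles. Of the 132 members, 102 stayed above that mark on every array, 22 below it on every array and 8 on both sides. Of all 18194 genes, 14766 stayed above it on every array, 2137 below it on every array and 1291 on both sides. The 22 dim members comprised 3 Fbxo, 4 Fbxw, 2 Fbxl, 6 Klhl, 2 Dcaf and 5 Asb genes. Brightness of different probe sets does not rank transcripts, so levels are compared here only for the same genes between groups.

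Family medians were compared across the 4 groups on the same genes. The Klhl median averaged 6.86 ± 0.1 in activated KO, 6.90 ± 0.0505 in activated WT, 7.28 ± 0.0897 in naive KO and 7.31 ± 0.0337 in naive WT cells (SD over 3, 2, 3 and 3 arrays, as for the families that follow). The Fbxo median was 7.33 ± 0.0779 in activated KO, 7.43 ± 0.00497 in activated WT, 7.53 ± 0.0588 in naive KO and 7.64 ± 0.104 in naive WT cells. The Fbxl median was 6.65 ± 0.047 in activated KO, 6.71 ± 0.129 in activated WT, 6.85 ± 0.0568 in naive KO and 6.98 ± 0.102 in naive WT cells. In these 3 families the activated means lay below the naive means of the same genotype. Such medians of levels follow whichever gene lies in the middle. The medians of the per-gene differences on activation were smaller in size, at -0.081 (Klhl), -0.071 (Fbxo) and -0.086 (Fbxl) in KO cells. In WT cells they were -0.148 (Klhl), -0.064 (Fbxo) and -0.062 (Fbxl). For all genes that median was -0.029 in KO and 0.057 in WT cells. The Dcaf median was 8.49 ± 0.067 in activated KO, 8.48 ± 0.0902 in activated WT, 8.38 ± 0.0181 in naive KO and 8.46 ± 0.0195 in naive WT cells. The median of the per-gene Dcaf differences on activation was -0.033 in KO and 0.039 in WT cells. The Fbxw median stayed between 6.32 and 6.55 on all 11 arrays and the Asb median between 5.47 and 5.91. The median of all genes was 6.56 in activated KO, 6.59 in activated WT, 6.64 in naive KO and 6.67 in naive WT cells. These medians are descriptions and carry no test.

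Loss of cereblon left no receptor past the threshold. In activated cells 0 of the 132 members passed between KO and WT, where 0.0605% of all genes did, and in naive cells 0 passed, where 0.148% of all genes did. On the mean of both states 0 members passed, against 0.104% of all genes. The interaction, which asks whether the response to activation differs between genotypes, was passed by 0 members and by 0.0% of all genes. At an unadjusted p under 0.05 there were 7 members in activated cells (5.3%, all genes 6.9%), 13 in naive cells (9.85%, all genes 14.5%), 2 on the mean (1.52%, all genes 7.13%) and 16 in the interaction (12.1%, all genes 13.8%). Each of these shares was below that of all genes.

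The measured difference between genotypes was bounded for most members, as it was for most genes. The differences ran from -0.48 to 0.28 in activated cells and from -0.55 to 0.30 in naive cells. The 95% confidence interval lay within 0.5 log2 units of no difference for 125 members in activated cells (94.7%, all genes 91.9%). It did so for 125 in naive cells (94.7%, all genes 91.2%) and for 130 on the mean of both states (98.5%, all genes 97.4%). For the interaction it did so for 96 members (72.7%, all genes 64.8%), so larger differences in response were not bounded for the others. These counts include the 22 members dim on every array, whose intervals need not bound a change in the transcript. By family, the naive intervals lay within that limit for 31 of 32 Fbxo, 18 of 18 Fbxw, 15 of 17 Fbxl, 30 of 33 Klhl, 14 of 14 Dcaf and 17 of 18 Asb genes. The family medians of the KO minus WT difference ran from -0.046 (Fbxl) to 0.019 (Klhl) in activated cells and from -0.054 (Klhl) to 0.072 (Fbxl) in naive cells. The Dcaf genes, which share the Ddb1-Cul4 ligase with cereblon, had medians of -0.013 in activated and -0.003 in naive cells and ranges of -0.12 to 0.12 and -0.26 to 0.16.

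**Figure D1:**
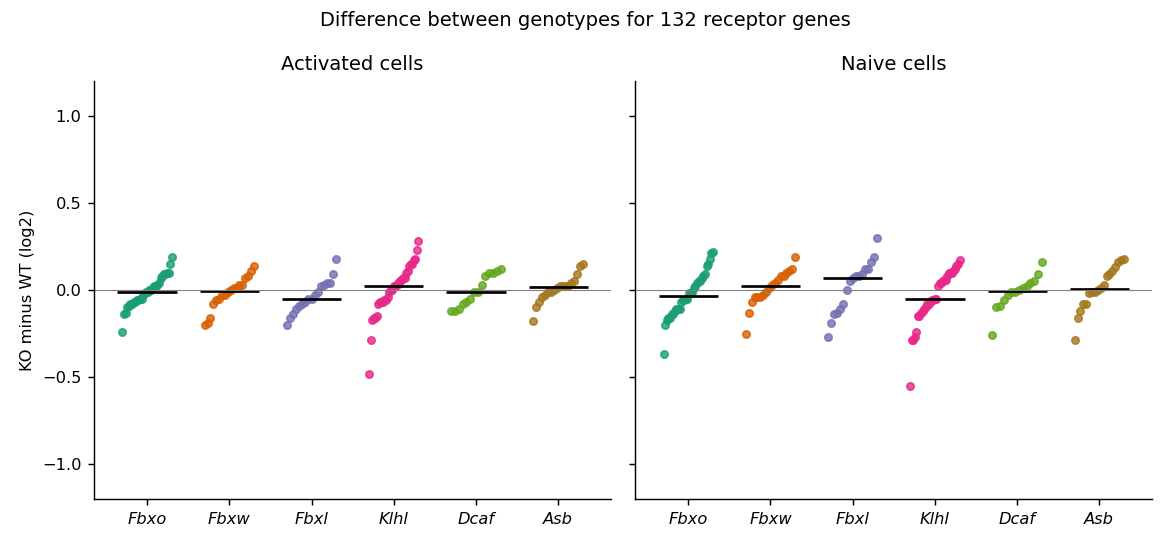
KO minus WT difference in log2 units for each receptor, by family, in activated cells (left) and naive cells (right); each dot is 1 gene and each bar the family median. The points lie between -0.48 and 0.28 in activated cells and between -0.55 and 0.30 in naive cells, and none passed the threshold.

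The members nearest to a genotype difference are given as values that did not pass. Klhl2, a Cul3 receptor that binds WNK kinases, read 8.86, 8.73 and 8.87 in activated KO cells, against 8.57 and 8.61 in activated WT cells. In naive cells it read 8.08, 8.28 and 7.91 in KO, against 8.47, 8.37 and 8.31 in WT. Every KO array lay above every WT array in activated cells and below every one in naive cells. The difference was 0.23 (95% interval 0.01 to 0.45, adjusted p = 0.69) in activated and -0.29 (-0.49 to -0.09, adjusted p = 0.19) in naive cells, and the interaction was 0.52 (SE 0.137, unadjusted p = 0.0023, adjusted p = 0.24).

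Klhl24, a Cul3 receptor known for controlling keratin 14 in skin, had the largest activated difference. It read 7.13, 7.63 and 7.27 in activated KO cells, against 8.03 and 7.62 in activated WT cells, so that the groups just overlapped. The difference was -0.48 (95% interval -0.78 to -0.18, adjusted p = 0.43), and the interaction was -0.58 (SE 0.187, adjusted p = 0.28). Klhl15, a Cul3 receptor of a protein phosphatase 2A subunit, had an interaction of 0.52 (SE 0.169, adjusted p = 0.28). Dcaf10 had one of 0.37 (SE 0.125, adjusted p = 0.28) and Fbxw5 one of 0.39 (SE 0.137, adjusted p = 0.29).

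In naive cells Dcaf10 read 7.18, 7.45 and 7.30 in KO, against 7.64, 7.51 and 7.54 in WT, without overlap (difference -0.26, SE 0.0831, adjusted p = 0.2). Fbxw5 read 7.10, 7.08 and 6.98 in naive KO, against 7.28, 7.27 and 7.35 in naive WT cells, also without overlap (difference -0.25, SE 0.0914, adjusted p = 0.25). Klhl23, which was dim on most arrays, read 4.53, 4.19 and 3.92 in naive KO, against 5.27, 4.73 and 4.28 in naive WT cells. Those groups overlapped, and the difference was -0.55 (SE 0.204, adjusted p = 0.25). Without the third naive WT array it was -0.79 with an adjusted p of 0.048. Fbxl21, a dim gene named after its value was seen, passed in naive cells only with array quality weights (-0.39, adjusted p = 0.036), and without weights its difference was -0.27 (adjusted p = 0.28).

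The highest naive readings of Klhl23 fell on arrays with high red cell transcripts. The mean level of 8 erythroid markers was 6.40 to 7.73 in naive KO and 7.41 to 8.99 in naive WT arrays, with a median KO minus WT difference of -1.64 and 0 of the 8 past the threshold. In activated cells it was 5.93 to 6.73 in KO and 6.49 to 6.54 in WT. None of the 8 was below the dim mark on every array. Their part in the Klhl23 values was not tested.

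On the mean of both states the smallest p belonged to Klhl28, which was higher in KO by 0.16 (SE 0.05, adjusted p = 0.48). Klhl25, a receptor of a repressor of translation initiation, gave -0.14 (SE 0.0564, adjusted p = 0.65). Asb2 gave 0.14 (SE 0.063, adjusted p = 0.7), Fbxl16 0.17 (SE 0.0866, adjusted p = 0.74) and Klhl24 -0.19 (SE 0.0937, adjusted p = 0.74). In activated cells Fbxl8 gave -0.20 (SE 0.0832, adjusted p = 0.67), Klhl28 0.17 (SE 0.0745, adjusted p = 0.68) and Klhl10, dim on every array, -0.29 (SE 0.125, adjusted p = 0.68).

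KO and WT arrays were separated for few members. In activated cells the arrays did not overlap for 6 members with KO higher (4.55%, all genes 7.37%) and 11 with KO lower (8.33%, all genes 12.0%). In naive cells they did not overlap for 8 with KO higher (6.06%, all genes 9.94%) and 13 with KO lower (9.85%, all genes 10.4%). Among the 104 other probe sets of the members, 0 passed between KO and WT in activated cells, in naive cells or on the mean of both states. In the interaction 0 passed as well. At their brightest probe sets 0.0605%, 0.148%, 0.104% and 0.0% of all genes passed in these 4 comparisons. The shares over the other probe sets of all genes are not given.

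Position on the chromosome was examined for the members that share chromosome 6 with Crbn. These were Asb15, Asb4, Fbxl14, Fbxo41 and Klhl42, and 0 of the 5 passed. Fbxo41 differed by -0.24 (unadjusted p = 0.075) in activated and 0.21 (unadjusted p = 0.079) in naive cells, and Klhl42 by 0.10 (unadjusted p = 0.32) and -0.10 (unadjusted p = 0.28). Asb15 and Asb4 were dim on 8 and 11 of the 11 arrays, with differences of 0.02 and -0.10 in activated and 0.16 and 0.01 in naive cells. Fbxl14 differed by -0.05 (unadjusted p = 0.62) in activated cells.

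Activation, by contrast with genotype, moved many receptors. In KO cells 58 of the 132 passed between activated and naive, a share of 43.9% against 43.2% of all genes. Of these 20 were higher in activated cells (15.2%, all genes 20.7%) and 38 lower (28.8%, all genes 22.4%). In WT cells 59 passed (44.7%, all genes 41.1%), with 16 higher (12.1%, all genes 20.2%) and 43 lower (32.6%, all genes 20.9%). The total share was thus near the background, while the higher share was below it and the lower share above it in both genotypes. When each array was centred on its own median the WT split became 25 higher and 35 lower, and the KO split 23 higher and 34 lower. Centring shifts all genes. Shares of all genes are not given for this or other alternatives, so those above are not the background of such counts. Without the second activated WT array, WT cells had 10 higher members.

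Markers of several cell types also passed as lower on activation. This was so for 5 of 7 T cell markers in each genotype, with 0 higher in KO and 1 higher in WT cells, and for 4 of 6 macrophage and monocyte markers in each genotype. It was also so for 2 of 5 dendritic cell markers in KO and 3 in WT cells, for 2 of 5 neutrophil markers in each, and for 2 of 3 NK cell markers in KO and 1 in WT cells, where 1 other NK cell marker was higher in each genotype. The mean level of the 6 macrophage markers was 6.26 to 6.56 in activated KO, 6.31 to 6.32 in activated WT, 6.89 to 7.44 in naive KO and 6.92 to 7.06 in naive WT arrays. That of the 5 dendritic cell markers was 5.70 to 5.84 in activated KO, 5.69 to 5.87 in activated WT, 6.06 to 6.2 in naive KO and 6.01 to 6.08 in naive WT arrays. The 5 neutrophil markers averaged 5.09 to 5.84 in activated KO, 5.27 on both activated WT, 5.70 to 7.59 in naive KO and 6.0 to 6.28 in naive WT arrays. The 3 NK cell markers averaged 6.64 to 6.86 in activated KO, 6.53 to 6.60 in activated WT, 6.75 to 7.23 in naive KO and 6.49 to 6.55 in naive WT arrays. Between genotypes 1 of the 3 passed in naive cells. Klra8 was higher in naive KO than in naive WT cells by 0.94 (SE 0.157, adjusted p = 0.038). Ncr1 (0.44) and Eomes (0.05) did not pass there. Cd4, Cd8a and Cd8b1 passed as lower in both genotypes. Of 4 platelet markers 2 were lower and 1 higher in KO and 1 was lower in WT cells, and 1 of the 4 was below the dim mark on every array, as no marker of the other lists was. Their part in the split of the receptors was not tested.

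Among the 78 members above the median level of all genes, 17 were higher and 35 lower in activated KO cells (21.8% and 44.9%, against 35.4% and 35.0% of all such genes). In WT cells 11 were higher and 39 lower (14.1% and 50%, against 29.7% and 34.7%). Changes of at least 2-fold were few. In KO cells Klhl42 rose by that much (0.758% of members, all genes 6.02%), and Klhl6, Klhl24, Fbxl12, Fbxl8 and Fbxl4 fell by that much (3.79%, all genes 5.86%). In WT cells 0 members rose by 2-fold (all genes 3.7%), and Klhl6, Fbxl12 and Klhl4 fell by it (2.27%, all genes 5.61%). The median difference of the members was -0.052 in KO and -0.041 in WT cells, against -0.029 and 0.057 for all genes.

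In both genotypes 12 members were higher (9.09%, all genes 16.0%) and 35 lower (26.5%, all genes 18.3%), and 0 passed in opposite directions (all genes 0.0824%). In KO cells alone 11 passed (8.33%, all genes 8.77%) and in WT cells alone 12 (9.09%, all genes 6.71%). These are not shown to differ between genotypes, since the interaction was passed by 0 members. Over the 47 members that passed in both genotypes the median absolute change was 0.71 in KO and 0.602 in WT cells. The change was larger in KO for 34 of them, but the same count is not given for all genes. Over all members the median absolute change was 0.188 in KO and 0.203 in WT cells, and over all genes 0.185 and 0.205. The KO and WT comparisons rest on separate arrays but share 1 estimate of the variance.

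**Figure D2:**
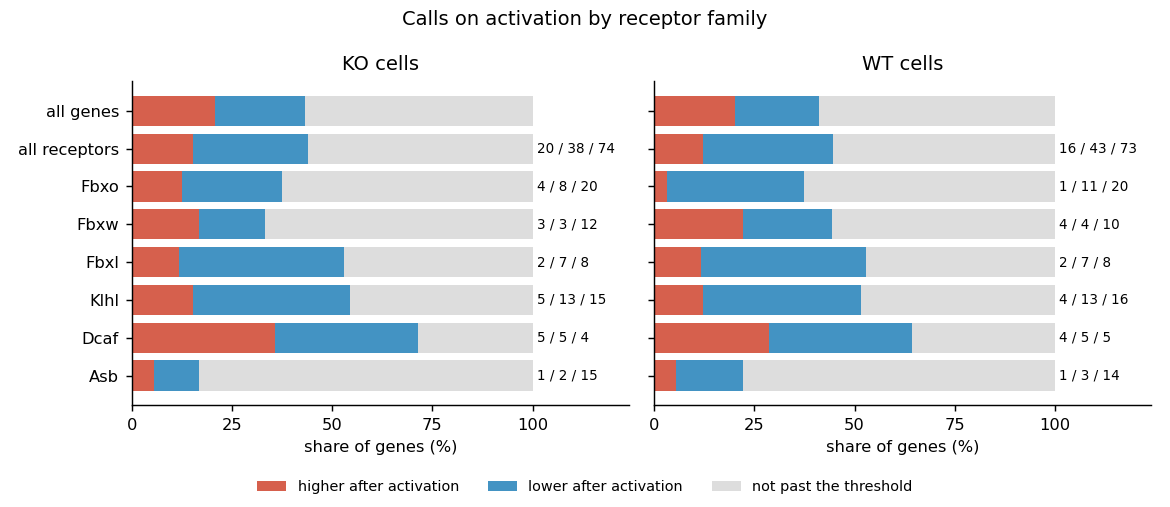
Share of genes higher, lower or not past the threshold on activation, in KO cells (left) and WT cells (right), for all genes, all 132 receptors and each family; the printed counts are higher, lower and not passing. Receptors had 20 higher and 38 lower in KO cells and 16 higher and 43 lower in WT cells, while Fbxw genes split 3 and 3 in KO and 4 and 4 in WT, and Dcaf genes 5 and 5 in KO and 4 and 5 in WT.

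**Figure D3:**
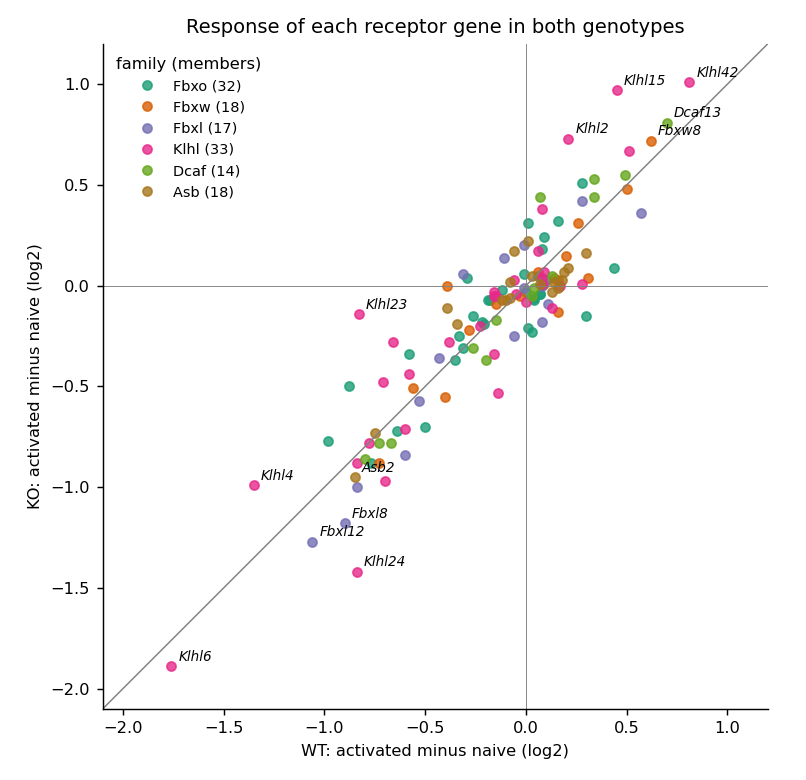
Activated minus naive difference in log2 units of each receptor in KO cells (vertical axis) and in WT cells (horizontal axis), coloured by family, with the line of equal response. Klhl6 lies lowest at -1.89 in KO and -1.76 in WT, and Klhl42 lies highest at 1.01 in KO and 0.81 in WT.

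Promoter windows are printed for 3 of the receptors with the largest changes, as the sequence beside which their values can be read. Each runs 5′ to 3′ on the gene's own strand, from 250 bases before to 50 after the start, as RefSeq gives it on GRCm38.p6. Klhl6 lies at chr16:19983000-19983299 (minus strand), Fbxl12 at chr9:20644718-20645017 (minus strand) and Klhl15 at chrX:94234680-94234979 (plus strand). Capitals mark an ETS match in Fbxl12 and a pair of GC box matches in Klhl15, read on either strand, and no motif searched matched in Klhl6.
Klhl6: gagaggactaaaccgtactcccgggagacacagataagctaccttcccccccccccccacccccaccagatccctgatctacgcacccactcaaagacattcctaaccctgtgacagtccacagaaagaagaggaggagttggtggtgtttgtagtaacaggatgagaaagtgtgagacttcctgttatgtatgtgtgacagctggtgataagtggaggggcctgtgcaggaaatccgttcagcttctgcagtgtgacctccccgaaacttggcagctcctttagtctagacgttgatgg
Fbxl12: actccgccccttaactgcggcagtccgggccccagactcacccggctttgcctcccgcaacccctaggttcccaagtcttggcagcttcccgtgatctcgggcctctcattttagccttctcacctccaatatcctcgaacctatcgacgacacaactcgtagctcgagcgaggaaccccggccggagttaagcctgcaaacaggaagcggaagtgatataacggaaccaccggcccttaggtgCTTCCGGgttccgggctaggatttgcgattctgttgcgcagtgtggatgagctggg
Klhl15: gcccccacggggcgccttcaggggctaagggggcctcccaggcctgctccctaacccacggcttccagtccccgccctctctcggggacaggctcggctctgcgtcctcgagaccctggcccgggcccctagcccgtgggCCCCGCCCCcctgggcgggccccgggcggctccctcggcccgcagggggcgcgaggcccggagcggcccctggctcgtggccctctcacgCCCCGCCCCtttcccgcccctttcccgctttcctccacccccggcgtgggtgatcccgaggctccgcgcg
The motifs were chosen after the changes were known, and a match is a description of letters only.

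The Klhl receptors of Cul3 held the largest falls and the largest rise. In KO cells 5 of the 33 rose and 13 fell, where 20.7% of all genes rose and 22.4% fell, and in WT cells 4 rose and 13 fell, where 20.2% of all genes rose and 20.9% fell. The family medians of the per-gene differences were -0.081 in KO and -0.148 in WT cells. These shares of all genes are the background for every family below, and no difference between a family and all genes was tested. Klhl6, a receptor of lymphoid tissue known for its part in B cell receptor signalling and germinal centres, read 9.01, 9.32 and 9.08 in activated KO cells, against 11.08, 11.01 and 10.99 in naive KO cells. WT cells gave 9.22 and 9.19 when activated, against 10.84, 11.00 and 11.05 when naive. Every activated array was below every naive one by more than 1 log2 unit. Klhl6 fell by 1.89 in KO (SE 0.0882, 3.7-fold, adjusted p = 2.6e-09) and by 1.76 in WT cells (SE 0.0986, 3.38-fold, adjusted p = 2.9e-08).

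B cell transcripts moved in the same direction as Klhl6. The mean level of 5 B cell markers was 6.76 to 7.24 in activated KO, 6.16 to 6.79 in activated WT, 7.29 to 8.20 in naive KO and 7.12 to 7.41 in naive WT arrays. Of the 5, 2 passed as lower on activation in each genotype. Cd79a, part of the B cell receptor, fell by 1.23 in KO and 1.40 in WT cells, and its partner Cd79b fell by 1.53 and 1.59. Ms4a1, which encodes CD20, differed by -0.82 in KO and -0.95 in WT cells, Blnk by -0.18 and -0.30, and Pax5 by -0.19 and 0.10, none of which passed. None of the 5 was below the dim mark on every array, and their part in the Klhl6 result was not tested.

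Klhl24 read 7.13, 7.63 and 7.27 in activated KO cells, against 8.78, 8.81 and 8.71 in naive KO cells. WT cells gave 8.03 and 7.62 when activated, against 8.61, 8.72 and 8.64 when naive. The states did not overlap, and the fall was 1.42 in KO (SE 0.125, adjusted p = 6e-07) and 0.84 in WT cells (SE 0.14, adjusted p = 0.00028). The other 4 probe sets of Klhl24 pointed the same way in both genotypes, at differences from -0.40 to -2.77 in KO and from -0.58 to -2.46 in WT cells, and 1 of them did not pass in either.

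Klhl25 fell by 0.88 in KO (SE 0.0751, adjusted p = 4.7e-07) and 0.84 in WT cells (SE 0.084, adjusted p = 3.2e-06). Klhl17, also called actinfilin and known from neurons, fell by 0.97 in KO (SE 0.0862) and 0.70 in WT cells (SE 0.0964). Klhl4 fell by 0.99 in KO (SE 0.187) and 1.35 in WT cells (SE 0.209), but 10 of its 11 readings were dim, the exception being 4.73 on a naive WT array. Klhl9 and Klhl13, which act together on Aurora B in mitosis, did not move alike. Klhl9 fell by 0.44 in KO (SE 0.0661) and 0.58 in WT cells (SE 0.0739), while Klhl13 differed by -0.11 (adjusted p = 0.29) and 0.13 (adjusted p = 0.24) at readings of 4.38 to 4.72, near the dim mark. Klhl22, a receptor of the mitotic kinase Plk1, fell by 0.78 in each genotype (SE 0.127 in KO and 0.141 in WT), and Klhl5 fell by 0.48 in KO and 0.71 in WT cells. With the mean of a gene's probe sets in place of the brightest one the falls still passed but were smaller. Klhl25 then fell by 0.53 in KO and 0.47 in WT cells, Klhl22 by 0.41 and 0.35, Klhl4 by 0.54 and 0.72, and Klhl5 by 0.29 and 0.37.

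Klhl42, a receptor of the microtubule-severing protein katanin, read 8.26, 8.32 and 8.39 in activated KO cells, against 7.25, 7.45 and 7.23 in naive KO cells. In WT cells the readings were 8.17 and 8.26 when activated, against 7.58, 7.35 and 7.30 when naive. All activated arrays lay above all naive ones. The rise was 1.01 in KO (SE 0.0887, 2.01-fold, adjusted p = 6e-07) and 0.81 in WT cells (SE 0.0991, 1.75-fold, adjusted p = 2.1e-05).

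Klhl15 read 6.66, 6.98 and 6.65 in activated KO, against 5.76, 5.77 and 5.84 in naive KO cells, a rise of 0.97 (SE 0.113, adjusted p = 8.4e-06). In WT cells it read 6.33 and 6.64 when activated, against 6.2, 6.02 and 5.87 when naive, a rise of 0.45 (SE 0.126, adjusted p = 0.011). The states were separated in both genotypes, more narrowly in WT, where the difference without the second activated array was 0.30 with an adjusted p of 0.14. Klhl12, a receptor that enlarges COPII transport vesicles, rose by 0.67 in KO (SE 0.104, adjusted p = 0.00012) and 0.51 in WT cells (SE 0.116, adjusted p = 0.0028). Klhl20, a receptor of death-associated protein kinase, differed by -0.05 (adjusted p = 0.58) in KO and -0.16 (adjusted p = 0.12) in WT cells. Klhl14, known from B cells, was dim and differed by -0.08 in KO and by 0.00 in WT cells.

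Klhl2 passed in KO cells, with a rise of 0.73 (SE 0.091, adjusted p = 1.6e-05), and not in WT cells, where the difference was 0.21 (SE 0.102, adjusted p = 0.13). Its interaction, given above, did not pass.

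**Figure D4:**
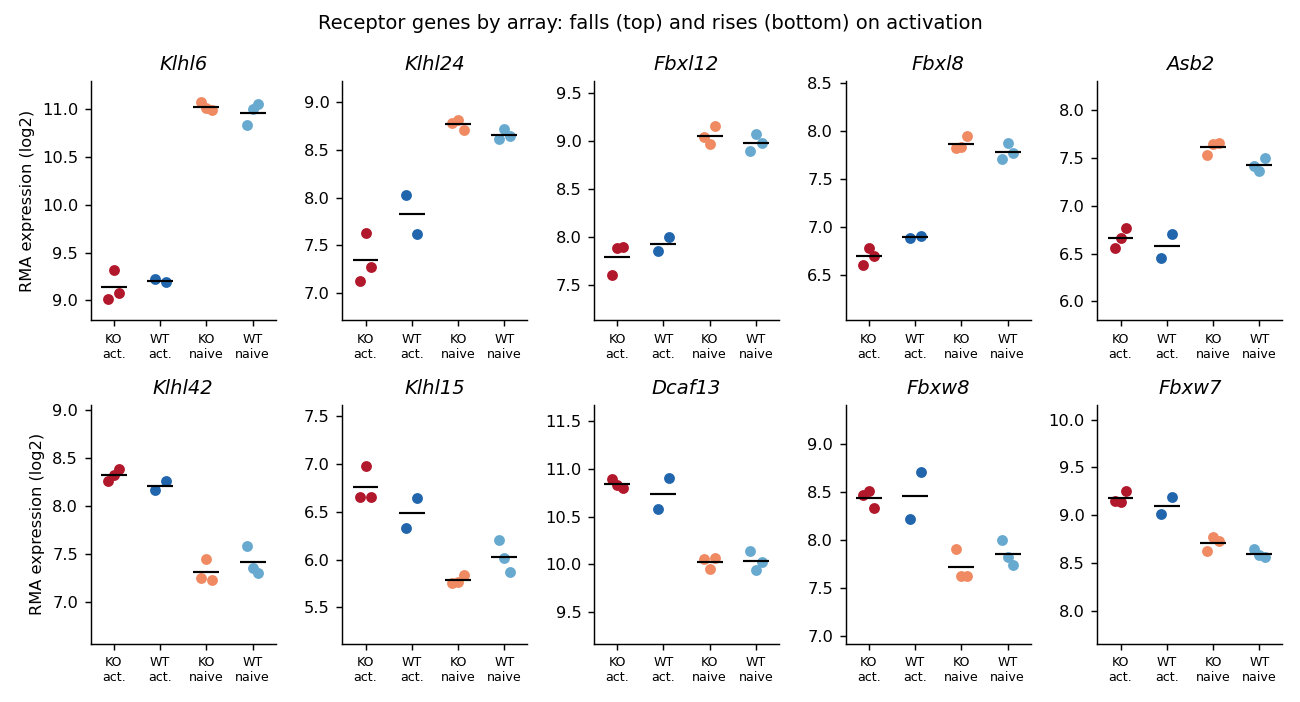
Log2 level of 10 receptors on each of the 11 arrays in activated KO, activated WT, naive KO and naive WT cells; dots are arrays, lines are group means, and each panel spans 2.5 log2 units. Klhl6, Klhl24, Fbxl12, Fbxl8 and Asb2 (top) lie lower on every activated array than on every naive one, and Klhl42, Klhl15, Dcaf13, Fbxw8 and Fbxw7 (bottom) lie higher within each genotype.

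The Fbxl receptors bind their substrate through leucine-rich repeats. In each genotype 2 of the 17 Fbxl genes rose and 7 fell. Of all genes 20.7% rose and 22.4% fell in KO, and 20.2% rose and 20.9% fell in WT cells. The 7 WT falls include Fbxl12os (-0.31, adjusted p = 0.034), the opposite-strand transcript that is not itself a receptor. Fbxl12, a receptor of cyclin-dependent kinase inhibitors and of CaM kinase I, read 7.60, 7.88 and 7.89 in activated KO, against 9.04, 8.97 and 9.16 in naive KO cells. The WT readings were 7.85 and 8.0 when activated, against 8.90, 9.08 and 8.98 when naive. Activated and naive arrays were well apart in both genotypes, with falls of 1.27 in KO (SE 0.093, 2.42-fold, adjusted p = 1.1e-07) and 1.06 in WT cells (SE 0.104, 2.09-fold, adjusted p = 2.8e-06).

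Fbxl8 read 6.60, 6.78 and 6.69 in activated KO, against 7.82, 7.83 and 7.95 in naive KO cells, and fell by 1.18 (SE 0.0744, adjusted p = 3.1e-08). Activated WT cells gave 6.88 and 6.90, against 7.71, 7.88 and 7.77 in naive WT cells, and the gene fell by 0.90 (SE 0.0832, adjusted p = 1.8e-06). Fbxl4, a mitochondrial protein that restrains mitophagy, fell by 1.00 in KO (SE 0.0943, adjusted p = 1.1e-06) and 0.84 in WT cells (SE 0.105, adjusted p = 2.6e-05). Fbxl20, known from synapses, fell by 0.84 in KO and 0.60 in WT cells, and Fbxl14, a receptor of the transcription factor Snail, by 0.57 and 0.53. The mean of the probe sets of Fbxl20 fell by 0.37 in KO and 0.33 in WT cells.

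Fbxl18 rose by 0.36 in KO (SE 0.0811, adjusted p = 0.0025) and 0.57 in WT cells (SE 0.0907, adjusted p = 0.0002). Fbxl6 rose by 0.42 in KO (SE 0.0895, adjusted p = 0.0017) and 0.28 in WT cells (SE 0.1, adjusted p = 0.04). The WT value of Fbxl6 was 0.45 without the first activated array and 0.11 (adjusted p = 0.42) without the second, and its adjusted p was 0.096 with the WT arrays fitted alone and 0.061 to 0.087 with any naive WT array left out. Fbxl5, the iron-sensing receptor of iron regulatory protein 2, fell by 0.25 in KO (SE 0.0777, adjusted p = 0.02) and differed by -0.06 (adjusted p = 0.61) in WT cells. The KO call was lost without the second activated array (-0.20, adjusted p = 0.083), without the second naive array (-0.20, adjusted p = 0.088) and with centring on the median (-0.16, adjusted p = 0.11).

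The Fbxo receptors are the F-box proteins with other or no known substrate-binding domains. In KO cells 4 of 32 rose and 8 fell, where 20.7% of all genes rose and 22.4% fell, and in WT cells 1 rose and 11 fell, where 20.2% of all genes rose and 20.9% fell. Of the 32 Fbxo genes 0 rose in both genotypes (all genes 16.0%), and 8 fell in both (all genes 18.3%). Fbxo33 read 9.06, 9.13 and 9.21 in activated KO, against 9.84, 9.91 and 9.97 in naive KO cells, and fell by 0.77 (SE 0.0782, adjusted p = 2.2e-06). In WT cells it read 8.93 and 9.15 when activated, against 9.94, 10.05 and 10.08 when naive, and fell by 0.98 (SE 0.0874, adjusted p = 1.2e-06). The states did not overlap for Fbxo33 in either genotype.

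Fbxo32, known in muscle as atrogin-1 and as a target of FoxO factors, fell by 0.88 in KO (SE 0.102, adjusted p = 8.7e-06) and 0.77 in WT cells (SE 0.114, adjusted p = 0.00011). Its other probe sets fell as well, by 0.66 and 1.86 in KO and by 0.55 and 1.30 in WT cells. Fbxo9 fell by 0.72 in KO (SE 0.0739) and 0.64 in WT cells (SE 0.0826), and Fbxo25 by 0.70 (SE 0.0772) and 0.50 (SE 0.0863).

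Fbxo5, also called Emi1, is an inhibitor of the anaphase-promoting complex. It read 6.74, 6.94 and 6.68 in activated KO, against 7.55, 7.19 and 7.13 in naive KO cells, and fell by 0.50 (SE 0.142, adjusted p = 0.011). In WT cells it read 6.60 and 6.95 when activated, against 7.91, 7.61 and 7.45 when naive, and fell by 0.88 (SE 0.159, adjusted p = 0.00052). Without the first naive KO array the KO difference was -0.37 with an adjusted p of 0.054. The erythroid markers passed as lower on activation for 2 of 8 in KO and 5 of 8 in WT cells, with medians of -0.66 and -2.1, and in both genotypes the naive array with the highest erythroid level was also the one with the highest Fbxo5. Their part in the Fbxo5 result was not tested. Fbxo7, a gene of inherited parkinsonism also known from red cell formation, fell by 0.31 in KO (SE 0.074, adjusted p = 0.0032) and 0.31 in WT cells (SE 0.0827, adjusted p = 0.0092), and its WT call was lost without the first activated array (-0.23, adjusted p = 0.083).

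Several Fbxo receptors have substrates known from lymphocytes or the cell cycle. Fbxo11, a receptor of Bcl6, differed by 0.18 (adjusted p = 0.14) in KO and 0.08 (adjusted p = 0.58) in WT cells, and passed in KO cells with centring on the median (0.26, adjusted p = 0.038). Fbxo38, a receptor of PD-1, differed by -0.18 (adjusted p = 0.079) in KO and -0.22 (adjusted p = 0.06) in WT cells. Fbxo10, a receptor of Bcl2, differed by -0.23 (adjusted p = 0.051) in KO and 0.03 (adjusted p = 0.85) in WT cells. Fbxo38 passed in KO cells with array quality weights (-0.22, adjusted p = 0.02), after quantile normalization (-0.26, adjusted p = 0.016), with only genes above the median level tested (adjusted p = 0.042) and without the second activated KO array (-0.23, adjusted p = 0.043). In WT cells it passed with the replicate block (-0.26, adjusted p = 0.033). The WT difference stayed at -0.22 and also passed with only genes above the median level (adjusted p = 0.033), the mean of the probe sets (0.045), a variance trend (0.046) and without the third activated KO array (0.042). Fbxo10 passed in KO cells without the first naive KO array (-0.31, adjusted p = 0.014), with array quality weights (-0.21, adjusted p = 0.042), with only genes above the median level (-0.23, adjusted p = 0.029), with the mean of the probe sets (-0.23, adjusted p = 0.042) and in the fits without either activated WT array (-0.23, adjusted p = 0.044). Fbxo31, a receptor of cyclin D1, rose by 0.32 in KO cells (adjusted p = 0.021) and differed by 0.16 (adjusted p = 0.3) in WT cells. The KO call of Fbxo31 was lost with the mean of the probe sets (0.10, adjusted p = 0.38), without the second activated KO array (0.27, adjusted p = 0.091) and without the first or the second naive KO array (adjusted p = 0.053 and 0.064). In WT cells Fbxo31 passed without the first activated array (0.35, adjusted p = 0.041). Fbxo22, a receptor of histone demethylases, fell by 0.29 in WT cells (adjusted p = 0.047) and differed by 0.04 in KO cells (adjusted p = 0.82), and the WT difference was -0.09 (adjusted p = 0.52) without the second activated array and -0.07 (adjusted p = 0.4) with the mean of the probe sets. The WT call of Fbxo22 was lost under most other alternatives too, and without the first activated array the difference was -0.50.

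The Fbxw receptors, which bind phosphorylated substrates with a WD40 propeller, divided evenly. In KO cells 3 of 18 rose and 3 fell (all genes 20.7% and 22.4%), and in WT cells 4 rose and 4 fell (all genes 20.2% and 20.9%). Fbxw7, the receptor of cyclin E, Myc and Notch, read 9.15, 9.14 and 9.25 in activated KO, against 8.62, 8.77 and 8.73 in naive KO cells. In WT cells it read 9.01 and 9.19 when activated, against 8.65, 8.58 and 8.56 when naive. The states were apart in both genotypes, and Fbxw7 rose by 0.48 in KO (SE 0.0741, adjusted p = 0.00012) and 0.50 in WT cells (SE 0.0829, adjusted p = 0.00026). Its other probe set rose by 0.52 in KO and 0.41 in WT cells.

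Fbxw8, the partner of Cul7, rose by 0.72 in KO (SE 0.124, adjusted p = 0.00028) and 0.62 in WT cells (SE 0.139, adjusted p = 0.0028). Its 2 activated WT arrays, at 8.22 and 8.71, were far apart, and without the higher one the WT difference was 0.37 with an adjusted p of 0.058. Averaged over the probe sets, the WT rise was 0.35. Fbxw11, a receptor of IκB and β-catenin, rose by 0.31 in KO (SE 0.0719, adjusted p = 0.0027) and 0.26 in WT cells (SE 0.0804, adjusted p = 0.018). Its WT call was lost without the second activated array (adjusted p = 0.076), without the third naive array (adjusted p = 0.054) and after quantile normalization (0.17, adjusted p = 0.097). Fbxw4 read 7.87, 7.92 and 7.81 in activated KO, against 8.73, 8.76 and 8.75 in naive KO cells, and fell by 0.88 (SE 0.064, adjusted p = 1.1e-07). In WT cells it fell by 0.73 (SE 0.0715, adjusted p = 2.8e-06).

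Fbxw17 fell by 0.51 in KO (SE 0.102) and 0.56 in WT cells (SE 0.114). Fbxw2 did not pass at its brightest probe set (-0.09 in KO, adjusted p = 0.51, and -0.15 in WT, adjusted p = 0.3), and among its other 6 probe sets 2 rose and 2 fell in KO cells. Without the second activated WT array its WT difference was -0.36 (adjusted p = 0.009). Of the 18 Fbxw genes 9 lie on chromosome 9, in a group of closely related copies, where probes may read more than 1 gene. Fbxw22, one of them, fell by 0.55 in KO (SE 0.0938, adjusted p = 0.00025) and 0.40 in WT cells (SE 0.105, adjusted p = 0.0077). Its identity is uncertain for that reason, and its WT call was lost without the second activated array (-0.28, adjusted p = 0.1) and after quantile normalization (-0.30, adjusted p = 0.07).

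Dcaf receptors, the family that shares its ligase core with cereblon, moved in both directions. In KO cells 5 of 14 rose and 5 fell (all genes 20.7% and 22.4%), and in WT cells 4 rose and 5 fell (all genes 20.2% and 20.9%). These were all among the 12 Dcaf genes above the median level, where 35.4% of all genes rose and 35.0% fell in KO and 29.7% rose and 34.7% fell in WT cells. Dcaf13, which also acts in making the small ribosomal subunit, read 10.89, 10.83 and 10.80 in activated KO, against 10.06, 9.95 and 10.07 in naive KO cells. Its WT readings were 10.58 and 10.90 when activated, against 10.14, 9.94 and 10.02 when naive. The states did not overlap, and Dcaf13 rose by 0.81 in KO (SE 0.0892, adjusted p = 4.9e-06) and 0.70 in WT cells (SE 0.0998, adjusted p = 7.4e-05).

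Dcaf1, the receptor taken over by the Vpr protein of HIV, rose by 0.55 in KO (SE 0.0768, adjusted p = 4.3e-05) and 0.49 in WT cells (SE 0.0859, adjusted p = 0.0004), or by 0.26 and 0.30 with the mean of its probe sets. Dcaf12, which reads acidic protein C-termini, rose by 0.53 in KO (SE 0.0896) and 0.34 in WT cells (SE 0.1, adjusted p = 0.016), but 1 of its other probe sets fell by 0.50 in WT cells. Its WT call was lost without the second activated array (0.30, adjusted p = 0.088) or the second naive array (0.29, adjusted p = 0.06), and the mean of its probe sets did not pass in KO (0.15, adjusted p = 0.06) or WT cells (0.06, adjusted p = 0.52). Dcaf17, the gene of Woodhouse-Sakati syndrome, rose by 0.44 in KO (SE 0.0875) and 0.34 in WT cells (SE 0.0978, adjusted p = 0.014). Another of its probe sets fell by 0.24 in KO cells, and with the mean of the probe sets the KO rise was 0.24. The WT call was lost with the mean of the probe sets (0.16, adjusted p = 0.073), with array quality weights (0.30, adjusted p = 0.065), without the first activated array (0.28, adjusted p = 0.1) and without the third naive array (0.27, adjusted p = 0.051).

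Dcaf15, the receptor through which aryl sulfonamide drugs degrade Rbm39, read 8.89, 9.12 and 8.93 in activated KO, against 9.76, 9.78 and 9.99 in naive KO cells. WT cells gave 8.81 and 9.17 when activated, against 9.78, 9.73 and 9.87 when naive. Activated arrays were all below naive ones, and Dcaf15 fell by 0.86 in KO (SE 0.104, adjusted p = 1.2e-05) and 0.80 in WT cells (SE 0.116, adjusted p = 8.7e-05). Dcaf11 fell by 0.78 in KO (SE 0.0765) and 0.67 in WT cells (SE 0.0855), and Dcaf5 by 0.78 (SE 0.081) and 0.73 (SE 0.0905). The mean of the probe sets of Dcaf5 fell by 0.39 in KO and 0.30 in WT cells. Dcaf8 fell by 0.31 in KO (SE 0.0647) and 0.26 in WT cells (SE 0.0724, adjusted p = 0.011), and its WT call was lost without the second activated array (-0.18, adjusted p = 0.086), with centring on the median (-0.18, adjusted p = 0.059) and with the WT arrays fitted alone (adjusted p = 0.059). Averaged over its probe sets, Dcaf8 fell by 0.51 in WT cells.

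Dcaf6 fell by 0.37 in KO (SE 0.0666, adjusted p = 0.00045) and by 0.20 in WT cells (SE 0.0744, adjusted p = 0.046). Its WT call was lost under most alternatives, among them leaving out the second activated array (-0.14, adjusted p = 0.23) and centring on the median (-0.12, adjusted p = 0.18). Dcaf7, a scaffold for the kinase Dyrk1a, differed by -0.01 (SE 0.0709, adjusted p = 0.91) in KO and 0.04 (SE 0.0793, adjusted p = 0.7) in WT cells. Dcaf10 rose by 0.44 in KO cells (SE 0.0831, adjusted p = 0.00059) and differed by 0.07 (SE 0.093, adjusted p = 0.58) in WT cells.

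Asb receptors use ankyrin repeats and a SOCS box. In KO cells 1 of 18 rose and 2 fell (all genes 20.7% and 22.4%), and in WT cells 1 rose and 3 fell (all genes 20.2% and 20.9%). Of the 18, 7 lay above the median level of all genes and 5 were dim on every array. Among the 7, 1 rose and 2 fell in KO (all such genes 35.4% and 35.0%) and 0 rose and 3 fell in WT cells (29.7% and 34.7%). Asb2, a haematopoietic receptor of filamins, read 6.56, 6.66 and 6.77 in activated KO, against 7.53, 7.65 and 7.66 in naive KO cells. Activated WT cells gave 6.45 and 6.70, against 7.42, 7.36 and 7.5 in naive WT cells. The states were apart in both genotypes, and Asb2 fell by 0.95 in KO (SE 0.084, adjusted p = 6.6e-07) and 0.85 in WT cells (SE 0.0939, adjusted p = 8.1e-06). Asb13 fell by 0.73 in KO (SE 0.117, adjusted p = 0.00016) and 0.75 in WT cells (SE 0.131, adjusted p = 0.00042), and with the mean of its probe sets the KO fall was 0.46. Asb6 rose by 0.22 in KO cells (SE 0.0715, adjusted p = 0.022), and differed by 0.01 (adjusted p = 0.91) in WT cells. The KO call of Asb6 was lost without the second or the third activated array and without the first or the second naive array, at adjusted p from 0.062 to 0.078, and with the mean of the probe sets (0.14, adjusted p = 0.07). Asb7 differed by -0.07 (adjusted p = 0.47) in KO and -0.12 (adjusted p = 0.25) in WT cells.

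Lists for the rest of the ligase machinery are given beside the shares of all genes, and neither their difference from all genes nor that from the receptors was tested. Those shares were 20.7% higher and 22.4% lower in KO and 20.2% and 20.9% in WT cells. Among genes above the median level they were 35.4% and 35.0% in KO and 29.7% and 34.7% in WT cells. Of 15 measured cullins, RING proteins and adaptors, 14 of them above that level, 9 rose and 4 fell in KO and 8 rose and 4 fell in WT cells, with medians of 0.35 and 0.25. Cul2 rose by 1.07 in KO (SE 0.0918) and 0.82 in WT cells (SE 0.103), and Eloc, the elongin C adaptor of Cul2 and Cul5, by 0.77 and 0.69. Rnf7, the RING partner of Cul5, fell by 0.70 and 0.58, though not in the mean of its probe sets (-0.13, adjusted p = 0.13, in KO and -0.14, adjusted p = 0.14, in WT cells). Of 9 genes that attach Nedd8, the ubiquitin-like activator of cullins, 8 lay above that level. Of the 9, 8 rose and 1 fell in KO and 6 rose and 1 fell in WT cells, with medians of 0.54 and 0.40. Uba3, part of the Nedd8-activating enzyme, rose by 0.69 in KO and 0.53 in WT cells, and Dcun1d5, a Nedd8 ligase cofactor, by 0.85 and 0.58. Dcun1d3, of the same family, fell by 0.50 and 0.62. Averaged over their probe sets, Dcun1d5 rose by 0.43 in KO and 0.24 in WT cells, and Dcun1d3 fell by 0.30 and 0.39.

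Of 17 genes for the COP9 signalosome, which removes Nedd8, for receptor exchange and for partner conjugating enzymes, 16 lay above the median level. Of the 17, 13 rose and 1 fell in KO (all genes 20.7% and 22.4%, above that level 35.4% and 35.0%) and 13 rose and 2 fell in WT cells (all genes 20.2% and 20.9%, above that level 29.7% and 34.7%), with medians of 0.65 and 0.52. Cops7a rose by 1.49 in KO (SE 0.0884) and 1.25 in WT cells (SE 0.0988), Cops6 by 1.07 and 1.02, and Cops5, the catalytic subunit, by 1.18 and 0.91. Of 41 measured receptors outside the name rule, 38 of them above the median level, 14 rose and 14 fell in KO and 11 rose and 13 fell in WT cells. Cish and Socs1, cytokine-induced SOCS-box proteins, rose by 2.57 and 1.81 in KO and by 2.19 and 1.61 in WT cells, and Kbtbd8, a Cul3 receptor, by 2.40 in KO and 1.77 in WT cells, or by 1.56 and 1.16 with the mean of its probe sets. In each of the 3 KO against WT comparisons Crbn was the 1 gene of these lists that passed.

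Other probe sets of the same genes mostly had the same direction. For members that passed, 44 of 55 other probe sets (80.0%) had the same sign in KO and 45 of 58 (77.6%) in WT cells. In the opposite direction, 2 genes had a probe set that passed in KO cells, Dcaf17 and Klhl28, and 3 in WT cells, Dcaf12, Klhl18 and Klhl28. Klhl28 fell at its brightest probe set by 0.20 in KO and 0.23 in WT cells. At its next brightest it rose by 0.41 and 0.39, so its direction is uncertain. By their brightest probe sets Klhl28 and Klhl18 are both among the lower members in the counts given here. Klhl18 was named here after its values were seen.

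Short motifs were counted in the promoter windows of 106 members, 144 windows in all, and in 32851 windows of all genes. The search covered both strands of windows of 300 bases. The ETS letters CCGGAAG were in 19.4% of member windows and 8.86% of all windows, and the GC box GGGGCGGGG was in 21.5% and 11.4%. The E-box CACGTG was in 7.64% and 7.15%, the AP-1 letters TGANTCA in 4.86% and 7.81%, the forkhead letters GTAAACA in 1.39% and 3.65%, and the CRE letters TGACGTCA in 1.39% and 1.79%. Of the members with a window, 8 rose and 29 fell in both genotypes. A GC box was in 3 of the 8 (Dcaf17, Fbxw7 and Klhl15) and in 7 of the 29, and ETS letters in 2 of the 8 (Dcaf17 and Fbxw11) and in 5 of the 29, among them Fbxl12, Fbxl4, Dcaf15 and Klhl22. The E-box was in none of the 8 and in 5 of the 29, among them Asb2 and Dcaf11. These shares carry no test.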

How the data were processed

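RNA of 11 T cell samples was hybridised to one-colour Affymetrix mouse arrays, 1 per sample. GCOS, RMA and Partek are named in the submitters' processing notes, without versions. Log2 values of 45101 probe sets, as deposited and with 0 missing, were used unchanged. The number of arrays limits the precision. No scan date or slide was used here.

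Symbols came from the platform annotation, in which 34958 probe sets carry 1 symbol, 932 several and 9211 none, and gene positions and promoter windows from RefSeq tables of GRCm38.p6. Of 150 names there that fit the rule, 18 were not analysed here. The test was limma's (version 3.58.1, R 4.3.3), fitted over all 11 arrays with 1 mean per group and moderated variances, and p-values were adjusted by Benjamini-Hochberg over 18194 genes. Figures used Python 3.11.15, pandas 2.3.3 and matplotlib 3.10.9. No label says that same-numbered arrays share an animal. The p-values set differences of group means against the spread between arrays within these groups, moderated over genes.

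Named were Crbn; the 5 members of smallest p in each genotype comparison; per family up to 5 largest rises and falls passing in both genotypes without overlap, and the 3 brightest; members with a textbook role in lymphocytes or the cell cycle; and the 3 largest changes of each ligase list. The members and lists were chosen with earlier results of these data known. The alternatives were other choices of probe set, only genes above the median level (78 of the 132 receptors), a variance trend, quantile normalization again, centring, only the compared arrays, array quality weights, a replicate block and each array left out.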

Additional observations from a re-analysis of the deposited data

How the results depend on the processing

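The absence of receptors past the threshold between genotypes held in all alternatives for activated cells, for the mean of both states and for the interaction. In naive cells the count was 1 with array quality weights and 0 to 1 when single arrays were left out, the 1 arising without the third naive WT array. In KO cells 52 to 66 receptors passed on activation over the alternatives, and in WT cells 46 to 60. Over 19 alternatives, the test of only genes above the median level aside, 48 of the 58 KO calls and 34 of the 59 WT calls were kept. The WT count of rises was 25 after centring on the median and 10 to 16 with single arrays left out. In their deviations from the group means, same-numbered arrays correlated between -0.299 and 0.391, and other pairs between -0.354 and 0.299. Of the 15 same-numbered pairs 7 were over 0.1, and 7 of 11 arrays correlated best with their own number. Whether same-numbered arrays share a source was not settled. The labels do not state it, and the main fit did not pair the samples. With the replicate block 60 receptors passed in KO and 58 in WT activation and 0 in the genotype comparisons. No shares of all genes are given for these alternatives, so the counts have no background beside them.

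Family medians of the per-gene differences on activation moved when only genes above the median level of all genes were tested. That test leaves 78 of the 132 receptors. The family medians also moved with centring, which shifts all genes. Above the median level they were -0.206 (Fbxo), -0.269 (Fbxw), -0.527 (Fbxl), -0.41 (Klhl), -0.055 (Dcaf) and -0.124 (Asb) in WT and -0.573 (Fbxl), -0.311 (Klhl) and -0.092 (Dcaf) in KO cells, and the interaction was 0.049 (Fbxw) and -0.169 (Fbxl). With centring they were 0.012 (Fbxo), 0.087 (Fbxw), 0.001 (Klhl) and 0.05 (Dcaf) in KO and 0.014 (Fbxo), 0.153 (Fbxw), -0.07 (Klhl) and 0.117 (Dcaf) in WT cells. With the mean of the probe sets the WT medians were -0.057 (Klhl) and -0.032 (Dcaf) and the Dcaf interaction 0.043. Array quality weights gave -0.148 (Fbxo) and quantile normalization -0.014 (Dcaf) in WT cells. With single arrays left out the Fbxw median ran from -0.061 to 0.015 in KO and from 0.018 to 0.085 in WT cells, the Fbxl median from -0.163 to -0.041 in WT cells, and the Dcaf interaction from -0.069 to 0.046. Beyond those 2 settings the cause was not tested.

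Among the named genes, signs on activation turned only for those whose difference did not pass in that genotype. The activation differences of Klhl2, Dcaf10, Klhl18 and Klhl28 were not part of this check. With the mean of the probe sets Fbxw2 was 0.09, Dcaf7 0.14, Asb7 0.09 and Klhl20 0.02 in KO, and Asb7 0.05, Fbxo31 -0.06 and Klhl20 0.06 in WT cells. With centring Dcaf7 was 0.07, Asb7 0.01, Klhl14 0.00 and Klhl20 0.03 in KO, and Fbxl5 0.02 in WT cells. With quantile normalization Fbxo22 was -0.05 in KO, and Dcaf7 -0.02 and Klhl14 -0.04 in WT cells. Klhl14 was -0.03 with the replicate block, and with array quality weights Klhl14 was -0.13 and Fbxo10 -0.02 in WT cells. With single arrays left out the KO ranges were 0.00 to 0.09 (Fbxo22) and -0.04 to 0.01 (Dcaf7). The WT ranges were -0.06 to 0.22 (Fbxo11), -0.36 to 0.06 (Fbxw2), -0.16 to 0.04 (Fbxl5), -0.01 to 0.10 (Dcaf7), -0.09 to 0.11 (Asb6), -0.06 to 0.12 (Fbxo10), -0.02 to 0.35 (Fbxo31) and -0.07 to 0.10 (Klhl14). Only the compared arrays could not be used for the mean of both states or the interaction, which need all 4 groups.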
